A study of Mus musculus with 6 samples.

Results

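The 37 genes of the mouse mitochondrial genome, 2 rRNAs, 22 tRNAs and 13 mRNAs, were followed in RNA recovered with the m6A reader YTHDF2 and in RNA of the lysate before the precipitation. The members are fixed by gene identity, as the whole gene set of that genome, though the set was taken up with earlier results of these data known. All 37 were found among the 54446 Ensembl gene IDs of the count files. Regulatory T (Treg) cells, sorted as live CD45+CD4+GFP+ cells by a Foxp3-GFP reporter, came from subcutaneous tumours of the mouse melanoma line B16F10 in wild-type (WT) mice. Of each lysate, 10% was set aside as Input, and the remainder was rotated with anti-YTHDF2 beads for 4 hours and given 6 washes. The series holds 3 immunoprecipitation (IP) and 3 Input libraries, all from WT cells with no further treatment. The sources used here give neither the age of the mice nor whether animals were pooled, so the p-values cover the spread between libraries alone, and that spread may be technical. No control precipitation was analysed here, and depletion below means a lower level in the IP than in the Input. The identity of the sorted cells was not checked against Treg markers, because neither the count files nor the reference table pairs Ensembl IDs with symbols.

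The mitochondrial genome is a small circle whose RNAs are made, cut and translated inside the organelle. Both strands are transcribed as long precursors, and tRNAs lying between the other genes are cut out to release them. The 2 rRNAs, mt-Rnr1 and mt-Rnr2, form the core of the small and the large subunit of the mitochondrial ribosome, and the mRNAs encode membrane subunits of the respiratory chain and of ATP synthase. Of these, 7 belong to complex I (mt-Nd1 to mt-Nd6 and mt-Nd4l), 1 to complex III (mt-Cytb), 3 to complex IV (mt-Co1 to mt-Co3) and 2 to ATP synthase (mt-Atp6 and mt-Atp8). YTHDF2 is known as a cytosolic protein that binds N6-methyladenosine in mRNA and promotes its decay.

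Reads assigned to genes numbered 6847731 to 8465453 per IP library and 10029733 to 14704617 per Input library. Reads without a unique alignment made up 2.88% to 3.35% of an IP file and 9.18% to 9.65% of an Input file. Within each group every pair of libraries differed by more than sampling noise, with a chi-square per degree of freedom of at least 16.1.

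Mitochondrial transcripts made up 9.29% ± 0.964 (SD, n = 3) of all reads counted in genes in the Input libraries, and in the IP 0.157% ± 0.0864 (SD, n = 3), a 59.3-fold lower mean share. The difference was larger for the rRNAs than for the mRNAs. They took 9.76%, 8.06% and 8.35% of the reads in Input replicates 1, 2 and 3, and 0.105%, 0.226% and 0.0762% in IP replicates 1, 2 and 3. Their mean share was 64.3-fold lower in the IP. The mRNAs took 0.623%, 0.498% and 0.568% in the Input and 0.0217%, 0.0273% and 0.0132% in the IP, a 27.1-fold lower mean share. The tRNAs took 0.00216% ± 0.000636 (SD, n = 3) in the Input, and 33 tRNA reads in all lay in the IP, each of them in IP replicate 2. For rRNAs, mRNAs and tRNAs alike, no IP library reached the lowest Input library. These shares are sums over chosen genes and carry no test. The libraries are bulk, so in an Input level fewer cells of a type and less RNA per cell cannot be told apart; IP and Input are both taken from lysate, and their difference is one in recovered RNA. Over all reads of a file, in place of those in genes, the shares were 100.1-fold lower for the rRNAs and 42.4-fold lower for the mRNAs. Reads in no annotated feature took a larger part of the IP files.

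**Figure D1:**
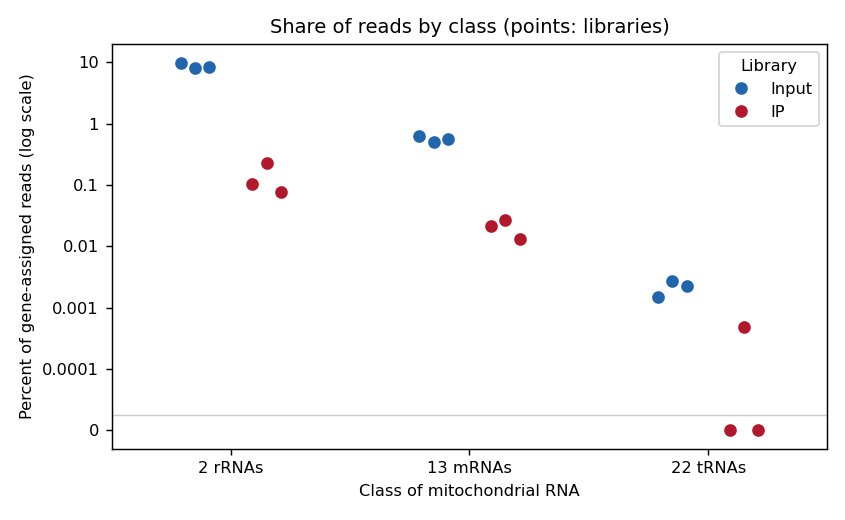
Percent of gene-assigned reads (log axis, with 0 drawn below the grey line) taken by the 2 rRNAs, 13 mRNAs and 22 tRNAs of the mitochondrial genome, with 1 point per library. The 3 Input points lie above the 3 IP points in every class, with rRNA shares from 8.06% upwards in the Input and up to 0.226% in the IP.

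Levels are given next as CPM, the count of a gene relative to the library total, scaled with the TMM factors of edgeR. mt-Rnr2 (ENSMUSG00000064339.1; GRCm38, MT:1094-2675), the rRNA of the large mitoribosomal subunit, reached 67909, 57697 and 59205 CPM in Input replicates 1 to 3 and 644, 1420 and 435 CPM in IP replicates 1 to 3. mt-Rnr1 (ENSMUSG00000064337.1; MT:70-1024), the rRNA of the small subunit, reached 35543, 27636 and 28036 CPM in the Input and 394, 832 and 268 CPM in the IP. For both rRNAs IP replicate 2 was the highest IP library, and it still lay far below every Input library. On the log2 scale the IP level of mt-Rnr2 differed from the Input by -6.21 ± 0.43 (SE; adjusted p = 3.50e-05, quasi-likelihood test of edgeR). That of mt-Rnr1 differed by -5.93 ± 0.42 (SE; adjusted p = 3.70e-05, edgeR). Without IP replicate 2 the values were -6.87 for mt-Rnr2 and -6.56 for mt-Rnr1, and without IP replicate 3 they were -5.94 and -5.67. With limma voom they were -6.44 and -6.17, and neither passed, with adjusted p-values of 0.0890 and 0.277. The range over the 16 alternatives was 8.22e-45 to 0.0890 for mt-Rnr2 and 1.61e-42 to 0.277 for mt-Rnr1. The kit's treatment of rRNA is not given in the sources used here, so these levels are those left in the libraries.

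Among the mRNAs, mt-Co1 (ENSMUSG00000064351.1; MT:5328-6872) was the best-read. It encodes the catalytic core subunit of cytochrome c oxidase. It had 1915, 1714 and 1790 CPM in Input replicates 1 to 3 and 83.1, 110.6 and 82.3 CPM in IP replicates 1 to 3. The IP libraries lay close together, and the log2 fold change was -4.30 ± 0.17 (SE; adjusted p = 1.62e-06, edgeR). This is a 19.6-fold lower level, the smallest fall of the mRNAs that passed the test.

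The complex I subunits had fold changes further from 0, or more spread between IP libraries, a difference from mt-Co1 that was not tested directly. mt-Nd1 (ENSMUSG00000064341.1; MT:2751-3707), a subunit of the membrane arm, had 952, 740 and 890 CPM in the Input and 20.4, 29.6 and 12.0 CPM in the IP. mt-Nd2 (ENSMUSG00000064345.1; MT:3914-4951), a proton-pumping subunit, had 409, 284 and 369 CPM in the Input and 11.5, 6.82 and 11.2 CPM in the IP. Their log2 fold changes were -5.38 ± 0.33 (SE; adjusted p = 1.59e-05, edgeR) and -5.16 ± 0.28 (SE; adjusted p = 8.35e-06, edgeR). mt-Nd5 (ENSMUSG00000064367.1; MT:11742-13565), another proton-pumping subunit, had 1368, 1110 and 1266 CPM in the Input and 48.6, 69.2 and 13.7 CPM in the IP. It fell by 4.83 ± 0.51 on the log2 scale (SE; adjusted p = 0.000402, edgeR). IP replicate 3 was the lowest for mt-Nd1 and mt-Nd5 but not for mt-Nd2.

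mt-Nd4 and mt-Nd6 had no read at all in IP replicate 3. mt-Nd4 (ENSMUSG00000064363.1; MT:10167-11544), a proton-pumping subunit of complex I, had 483, 408 and 423 CPM in the Input and 8.67, 7.40 and 0 CPM in the IP. It fell by 6.36 ± 0.87 on the log2 scale (SE; adjusted p = 0.00188, edgeR). The value was -6.98 without IP replicate 1, -5.80 without IP replicate 3 and -8.18 with limma voom. mt-Nd6 (ENSMUSG00000064368.1; MT:13552-14070) is the complex I subunit encoded on the strand opposite to the other mRNAs. It had 132, 98.1 and 146.6 CPM in the Input and 26.2, 12.9 and 0 CPM in the IP. Every IP library lay below every Input library, and the log2 fold change was -3.27 ± 1.07 (SE), but mt-Nd6 did not pass (adjusted p = 0.0844, edgeR). Without IP replicate 3 it did, at a log2 fold change of -2.71 (adjusted p = 0.000978, edgeR), 1 of the 3 alternatives among 16 in which it passed. Over the 16 the adjusted p lay between 0.000978 and 0.485. The value was -4.35 without IP replicate 1 and -5.60 with limma voom. The strand setting of the counting is not given in the sources used here, so reads of mt-Nd6 and of precursor RNA from the other strand cannot be told apart.

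mt-Cytb (ENSMUSG00000064370.1; MT:14145-15288), the haem-binding core subunit of complex III, had 1329, 899 and 1033 CPM in Input replicates 1 to 3. In IP replicates 1 to 3 it had 16.98, 33.97 and 2.85 CPM, so IP replicates 2 and 3 stood wide apart. It fell by 5.93 ± 0.71 on the log2 scale (SE; adjusted p = 0.000909, edgeR). The value was -6.80 without IP replicate 2, the highest IP library, -5.46 without IP replicate 3, the lowest, and -6.65 with limma voom.

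**Figure D2:**
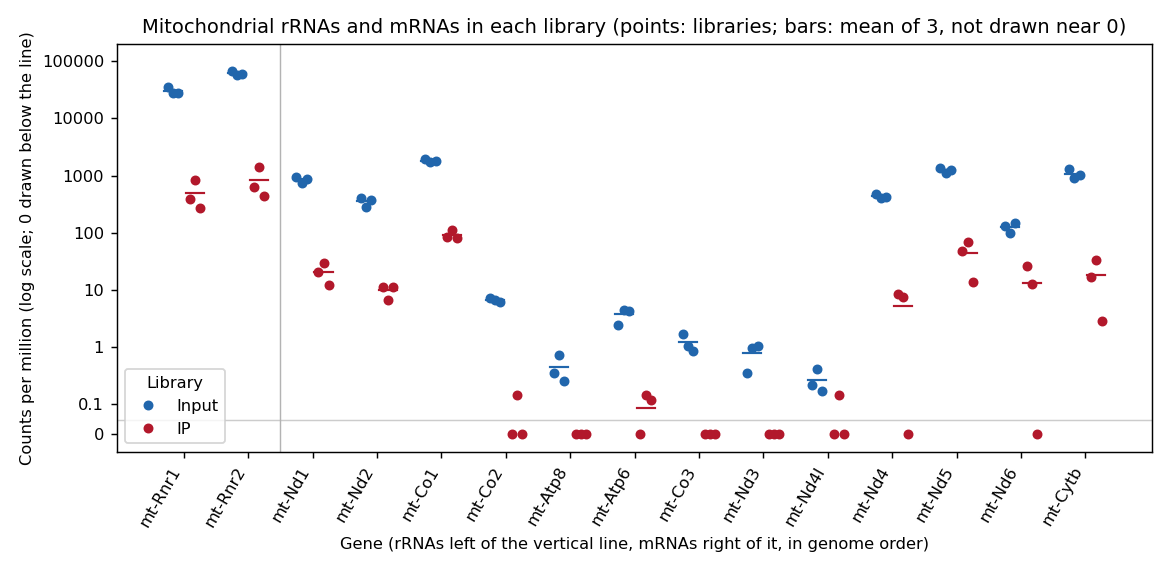
Level of the 2 rRNAs and the 13 mRNAs in CPM (log axis, with 0 drawn below the grey line), with 1 point per library and a bar at the mean, left out near 0. Every IP point lies below every Input point of the same gene, and the 6 mRNAs from mt-Co2 to mt-Nd4l lie below 10 CPM in the Input as well.

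The other 6 mRNAs hardly carried reads even in the Input. They are mt-Co2 and mt-Co3, subunits of complex IV, mt-Atp6 and mt-Atp8 of ATP synthase, and mt-Nd3 and mt-Nd4l of complex I. Over the 3 Input libraries mt-Co2 had 237 reads, mt-Atp6 126, mt-Co3 44, mt-Nd3 26, mt-Atp8 15 and mt-Nd4l 9. Scaled to gene length and library size as RPKM over the gene-assigned reads, their mean density in the Input was 0.863 to 9.36, against 230 to 1109 for the other 7 mRNAs. The lowest of the 7 was thus 24.6-fold above the highest of the 6. mt-Co1 and mt-Co2, which encode subunits of the same enzyme, differed 118-fold in density. In the order of the genome these 6 mRNAs are neighbours: with 5 tRNAs they form the stretch of 11 genes from mt-Ts1 to mt-Nd4l (MT:6870-10173). The stretch was delimited after the values were seen. Its 5 tRNAs had 1 read in all over the Input, against 764 reads for the 17 tRNAs elsewhere, of which 4 also had none.

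The RefSeq table for GRCm38 lists a pseudogene on chromosome 1, Gm10925, at 24613971-24614651. It carries mt-Atp6 among its synonyms and, at 681 bases, is as long as mt-Atp6. A further pseudogene, Gm10222, at 24612404-24612700 of chromosome 1, is 297 bases long, the length of mt-Nd4l, and has no synonym listed. Sequences were not compared. Reads that fit a nuclear copy as well as the mitochondrial gene have no unique alignment. Whether reads of the stretch were among the reads without a unique alignment was not tested. The levels of these 6 mRNAs are therefore uncertain, as are comparisons of their levels with those of other genes.

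**Figure D3:**
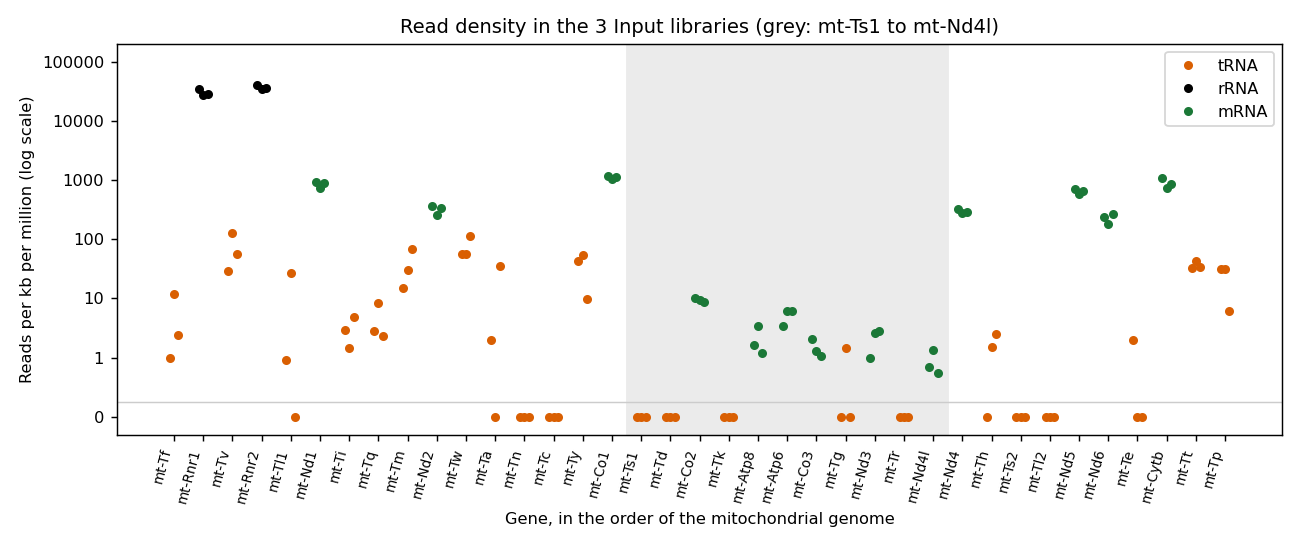
Read density as RPKM over the gene-assigned reads (log axis, with 0 drawn below the grey line) of all 37 genes in the 3 Input libraries, in genome order, with 1 point per library. The 6 mRNAs in the grey stretch from mt-Ts1 to mt-Nd4l have means of 0.863 to 9.36, and the 7 mRNAs on either side have means of 230 to 1109.

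Few reads of the stretch were left in the IP. mt-Co2 (ENSMUSG00000064354.1; MT:7013-7696) had 102, 64 and 71 reads in Input replicates 1 to 3 and 0, 1 and 0 reads in IP replicates 1 to 3. Pooled over libraries, the Input level was 162 times that of the IP (95% Poisson interval 28.8 to 6425, counting error only). mt-Co2 passed narrowly (adjusted p = 0.0491, edgeR), and 8 of the 15 alternatives that gave a value lost the call, with adjusted p-values between 3.10e-05 and 0.214 over the 15. The call was lost, among others, with each library except IP replicate 3 left out in turn. mt-Atp6 had 34, 42 and 50 reads in the Input and 0, 1 and 1 in the IP. Its pooled ratio was 43.1 (95% Poisson interval 11.7 to 359), and it did not pass (adjusted p = 0.102, edgeR). mt-Atp8, mt-Co3 and mt-Nd3 had no read in the IP, mt-Nd4l had 1, and these 4 mRNAs were too low to be tested. Against a floor of 3 reads per IP library, the IP level was at least 3.19-fold lower for mt-Co3, at least 2.06-fold lower for mt-Nd3 and at least 1.19-fold lower for mt-Atp8. These bounds are small because the Input itself held few reads. The pooled ratio of mt-Nd4l was 6.15 (95% Poisson interval 0.852 to 270), which does not show a difference. mt-Atp8 overlaps mt-Atp6, and mt-Nd4l overlaps mt-Nd4, so reads in these overlaps could be given to either gene or to none.

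Of the 37 genes, 15 passed the filter on low counts: both rRNAs, 9 mRNAs and 4 tRNAs. Of these, 9 were depleted at an adjusted p under 0.05 in edgeR's test: both rRNAs, and the 7 mRNAs mt-Nd1, mt-Nd2, mt-Co1, mt-Co2, mt-Nd4, mt-Nd5 and mt-Cytb. Over all 15615 genes tested, 6.11% were depleted and 10.4% were called in either direction. None of the 15 was enriched in edgeR's test, also at an unadjusted p under 0.05 or with DESeq2 or limma voom, where 4.33% of all tested genes were enriched by edgeR. The filter asks for a minimum level in 3 libraries, and 8 of the 15 met it only with the help of Input libraries. Of these, mt-Co2, mt-Atp6, mt-Tv, mt-Tw and mt-Tt reached the minimum in no IP library. The 9 in 15 is therefore a description, not a share of all members. With no filter beyond 1 read, 5 of 29 tested members were depleted, beside 3.29% of all genes in that fit. Whether equal replicate numbers mark 1 lysate is not given in the sources used here. With the replicate number as a block, 5 of 15 were depleted, beside 7.01% of all genes. Both alternatives lost mt-Co2, mt-Nd4, mt-Nd5 and mt-Cytb, with adjusted p-values of 0.0545 to 0.187 without the filter and 0.0933 to 0.176 with the block. DESeq2 called 14 of 17 members, beside 10% of the genes to which it gave an adjusted p. Among the tested members every IP library lay below every Input library for both rRNAs, the 9 mRNAs and 3 of the 4 tRNAs, where the same held for 23.7% of all tested genes. Outside the tested genes it also held for the other 4 mRNAs and 5 tRNAs. Each of these had at most 1 read in the IP, so a few Input reads in each library were enough. The share of untested genes for which the same held was not computed. For the 7 mRNAs outside the stretch the log2 fold changes ran from -6.36 to -3.27, where the median over all tested genes was -0.12.

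The mitochondrial genes were also set beside other abundant transcripts. Over the 6 libraries 2151 genes averaged 100 CPM or more, and 407 of them, or 18.9%, were depleted in edgeR's test, and the median log2 fold change was 0.18. In the order of the log2 fold change, mt-Nd4, mt-Rnr2, mt-Rnr1, mt-Cytb and mt-Nd1 held the lowest 5 places of the 2151. mt-Nd2 was at place 8, mt-Nd5 at place 11 and mt-Co1 at place 18. The standard errors of the first 4 overlap, so the order among these is not settled. Entry went by the mean over both groups, and each mRNA ranked here averaged under 100 CPM in the IP. These mRNAs thus entered through a high Input, which by itself favours low places. Both rRNAs averaged more than 100 CPM in the IP as well. mt-Nd6, which fell least of the tested mRNAs, did not reach the level for entry. The places are therefore a description and no test.

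**Figure D4:**
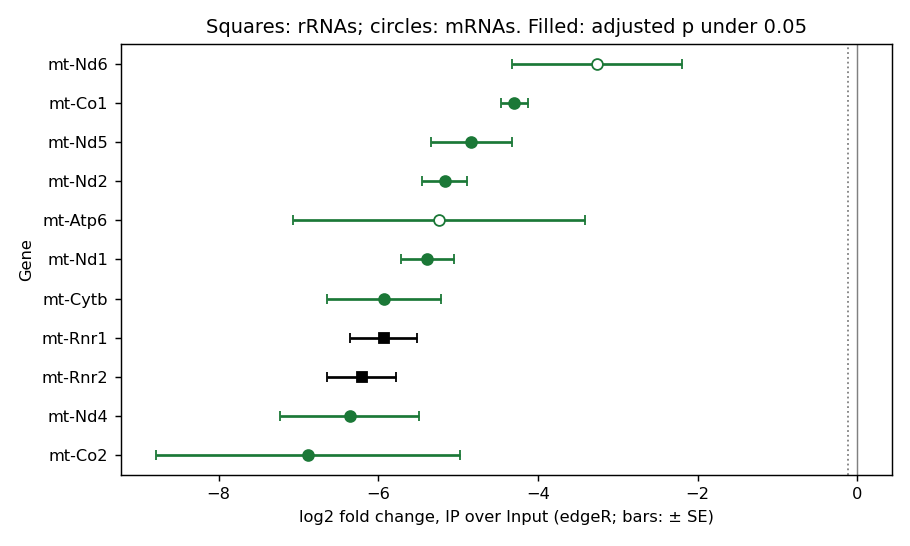
log2 fold change of IP over Input with its standard error for the 2 rRNAs (squares) and the 9 mRNAs (circles) that were tested; filled symbols passed at an adjusted p under 0.05 in edgeR's test, and the dotted line is the median of all tested genes, -0.12. mt-Nd6 and mt-Atp6 did not pass, and mt-Co2, mt-Atp6 and mt-Nd6 have the widest errors.

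The rRNAs were lower in the IP also relative to the sum of the mRNAs. For each mitochondrial mRNA read there were 15.7, 16.2 and 14.7 rRNA reads in Input replicates 1 to 3 and 4.82, 8.31 and 5.76 in IP replicates 1 to 3. The ranges do not overlap, and this ratio within a library does not depend on any scaling. A second fit took the reads of the 13 mRNAs, the mRNA pool, as the library size. In that fit mt-Rnr2 lay below the pool, at a log2 fold change of -1.40 ± 0.33 (SE; adjusted p = 0.00289, edgeR), as did mt-Rnr1 at -1.12 ± 0.32 (SE; adjusted p = 0.00960, edgeR). The pool is weighted by its best-read member, mt-Co1, with a mean of 30.6% of the mRNA reads in the Input and 48.9% in the IP. Single mRNAs lay as far below the pool with wider errors: mt-Nd4 at -1.70 ± 1.08 (SE; adjusted p = 0.160, edgeR) and mt-Co2 at -2.48 ± 1.54 (SE; adjusted p = 0.151, edgeR). The 6 mRNAs of the stretch, on 0 to 3 reads per IP library, had a 66.3-fold lower mean share of the gene-assigned reads, beside 64.3-fold for the rRNAs. The fit thus sets the rRNAs apart from the sum of the mRNAs and not from each of them. The call of mt-Rnr2 was kept in all 11 alternatives, with adjusted p-values of 2.54e-05 to 0.0261. That of mt-Rnr1 was lost without IP replicate 1 and without Input replicate 1, with adjusted p-values of 0.0591 and 0.0507. In this fit 0.538% of the 15615 genes lay below the pool and 73.3% above it, 73.8% in all. Because so many genes pass here, the adjusted p-values are close to the unadjusted ones, which were 0.00146 and 0.00549.

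None of the 9 tested mRNAs passed in this second fit. mt-Cytb came nearest, at -1.26 ± 0.55 (SE; adjusted p = 0.0611, edgeR), and was the 1 mRNA with an unadjusted p under 0.05. Below the pool, mt-Cytb and mt-Nd4 each passed in 3 of the 11 alternatives, with adjusted p-values from 0.0183 to 0.172 and from 0.0176 to 0.284. With limma voom mt-Nd4 passed (adjusted p = 0.0440), and with DESeq2 mt-Nd1 did (adjusted p = 0.0478). The make-up of the mRNA reads is given next as shares, with no test. mt-Co1 took 29.0%, 32.5% and 30.2% of the mitochondrial mRNA reads in Input replicates 1 to 3 and 38.6%, 40.8% and 67.4% in IP replicates 1 to 3. mt-Nd1 took 14.4%, 14.1% and 15.0% in the Input and 9.46%, 10.9% and 9.82% in the IP. mt-Cytb took 20.1%, 17.1% and 17.4% in the Input and 7.88%, 12.5% and 2.33% in the IP. For these mRNAs and for mt-Nd4 the IP and Input ranges did not overlap, with mt-Co1 higher and the others lower. The ranges of mt-Co2, mt-Atp8, mt-Co3 and mt-Nd3 did not overlap either, with at most 1 IP read each. How often such ranges do not overlap over all genes was not computed. The shares are parts of 1 total, so a higher share of mt-Co1 by itself lowers those of the others. The log2 fold change of mt-Co1 against the pool was 0.68 ± 0.34 (SE; adjusted p = 0.0904, edgeR). The ranges of mt-Nd5, at 21.1% ± 0.312 (SD, n = 3) of the Input and 19.8% ± 7.58 (SD, n = 3) of the IP mRNA reads, and of mt-Nd2 overlapped.

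mt-Nd6 took 12.2%, 4.77% and 0% of the mRNA reads in IP replicates 1 to 3 and 2.00%, 1.86% and 2.47% in the Input. Its IP values lie on both sides of the Input. Its log2 fold change against the pool was 1.42 ± 1.26 (SE; adjusted p = 0.299, edgeR). Without IP replicate 3 it was 2.00 (adjusted p = 0.00269, edgeR), the 1 alternative of 11 in which it passed. With limma voom it was -0.20, and over the 11 the adjusted p lay between 0.00269 and 0.911.

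**Figure D5:**
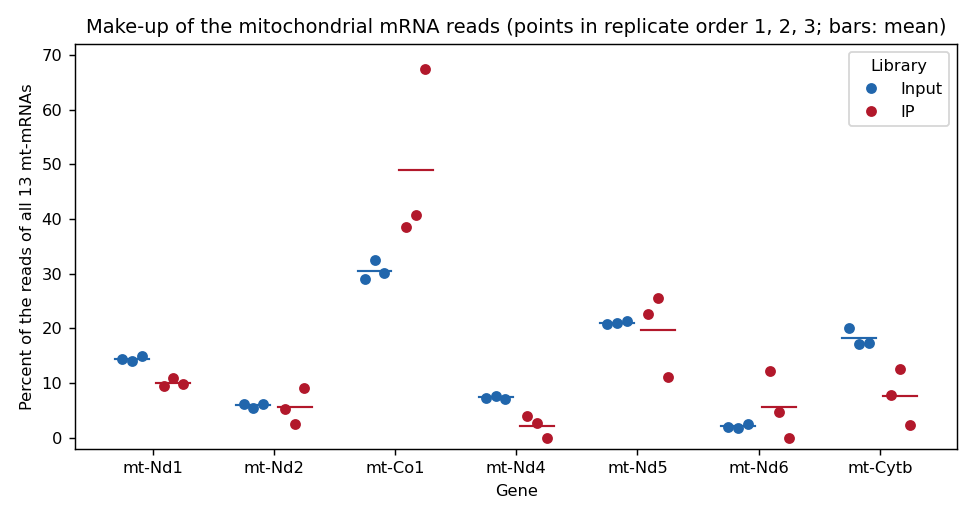
Percent of the reads of all 13 mitochondrial mRNAs taken by each of the 7 well-read mRNAs, with 1 point per library in the order of the replicate numbers and a bar at the mean. The Input points lie close together, mt-Co1 is higher in each IP library (38.6% to 67.4%) than in the Input (29.0% to 32.5%), and mt-Nd6 is spread from 0% to 12.2% in the IP.

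Ratios of 3 pairs of genes were also compared by an exact two-sided permutation test, whose smallest p for 3 against 3 libraries is 0.1. mt-Rnr2 had 1.91, 2.09 and 2.11 reads per read of mt-Rnr1 in Input replicates 1 to 3 and 1.63, 1.71 and 1.63 in IP replicates 1 to 3. The difference in mean log2 ratio was -0.30, with an exact permutation p of 0.1 and an adjusted p of 0.15 over the 3 pairs. The rRNA ratio was thus lower in each IP library, by a small amount. mt-Rnr2 had 35.5, 33.7 and 33.1 reads per read of mt-Co1 in the Input and 7.74, 12.8 and 5.29 in the IP. The difference was -2.08 on the log2 scale, with an exact permutation p of 0.1 and an adjusted p of 0.15. mt-Nd6 had 0.0995, 0.109 and 0.142 reads per read of mt-Cytb in the Input and 1.54, 0.380 and 0 in the IP, with an exact permutation p of 0.7 and an adjusted p of 0.7.

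The tRNAs, which carry the amino acids for the proteins made inside mitochondria, are 59 to 75 bases long and were barely covered. They had 216 to 276 reads per Input library. Of the 22, 14 had a read in the Input and 8 had none in any library. mt-Tw, the tRNA for tryptophan, had 55, 38 and 91 reads in Input replicates 1 to 3, and mt-Tv, that for valine, had 29, 90 and 47. mt-Tt, that for threonine, had 32, 29 and 28 reads. None of these 3 had a read in the IP. Against the floor of 3 reads per IP library, mt-Tw was at least 13.9-fold, mt-Tv at least 13.7-fold and mt-Tt at least 6.82-fold lower, for counting error only. None passed the test of edgeR, at adjusted p-values of 0.0512, 0.0574 and 0.0710. mt-Tw was called below the mRNA pool (adjusted p 0.0408 in edgeR's test), but this was lost in 9 of 10 alternatives, with adjusted p-values up to 0.435. mt-Tm, the tRNA for methionine, had 15, 21 and 58 reads in the Input and 0, 33 and 0 in the IP, and did not pass (adjusted p = 0.889, edgeR). It was the 1 tRNA with a read in the IP, and its Input and IP ranges overlapped. The other tRNAs with reads had 1 to 87 over the 3 Input libraries and none in the IP.

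IP replicate 3 held less of both rRNAs and of several mitochondrial mRNAs than the other IP libraries. At the shares of IP replicates 1 and 2, it would have held 159 reads of mt-Nd6, 63.4 of mt-Nd4, 192 of mt-Cytb and 452 of mt-Nd5. It held 0, 0, 24 and 115. For mt-Co1 it held 693 reads where 746 would match the others, and for mt-Nd2 94 where 73.5 would match. This library also had reads for the fewest gene IDs, 14200, against 18501 and 19991 in the other IP libraries. The part of this in the lower reads was not tested. Without IP replicate 3, 12 of 18 tested mitochondrial genes were depleted in edgeR's test, beside 8.73% of all genes in that fit, and all 9 of the depleted genes named above were among them.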

How the data were processed

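Per the file contents, the authors deposited raw read counts for each Ensembl gene ID in a separate file for each library. Trimmomatic 0.39, HISAT2 2.1.0, build mm10, HTSeq and DESeq2 are named in the submitters' processing notes. Not given in the sources used here are the annotation release, the strand setting and how duplicate and non-unique reads were handled. Spike-in IDs and the 5 HTSeq summary categories stayed out of tests and of the library sizes of the main fit. Library sizes and shares from all reads include the 5 categories. The rule that defines the genes names 3 of the 37; the symbols and classes of the others follow Ensembl's public mouse annotation of these IDs, since 0 of 49997 RefSeq rows hold an Ensembl ID. The 37 were matched one to one, by symbol, with the mitochondrial genes of the RefSeq table (GRCm38.p6), which gave positions and lengths.

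All genes were fitted with edgeR 4.0.16 in R 4.3.3 (filterByExpr, TMM, robust quasi-likelihood F-test, two-sided, group as the only term), with Benjamini-Hochberg adjustment over 15615 genes and a threshold of 0.05. Standard errors were derived from the F statistics. The second fit took the reads of the 13 mRNAs as library sizes. Single ratios used a pseudocount of 0.5. The fit was tested on simulated data. It called 14 of 100 genes lowered 4-fold and 39 of 100 lowered 16-fold, with 3 false calls among 56. A gene that did not pass may therefore still be lower in the IP. The lowered genes were drawn from tested genes with a mean of at least 50 reads. Their spread was the one edgeR fits as a trend over all genes, not that of single members. The counts of the simulation thus do not describe members with fewer reads, such as mt-Atp6 and the tRNAs. Values are given for every rRNA and mRNA, and for tRNAs with at least 10 reads in each Input library. Members and lists were chosen with earlier results of these data known, and the stretch from mt-Ts1 to mt-Nd4l after its values were seen. Lists of nuclear genes and cell markers were not analysed here. Without molecular identifiers, intervals and floors cover counting error only. Alternatives were other scalings, filters, DESeq2 1.42.0, limma 3.58.1 voom, a replicate block and leaving out each library.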

Additional observations from a re-analysis of the deposited data

Results flagged for a closer look

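Reads in no annotated feature, which lie outside the gene counts, came to a mean of 71.7% in the IP libraries, with 71.2% in the lowest of them against 51.6% in the highest Input library.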

How the results depend on the processing

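No tested mitochondrial gene changed direction between IP and Input in any alternative that gave it a value. mt-Nd1, mt-Nd2 and mt-Co1 kept their call in all 16. The number of depleted members was 5 without a filter beyond 1 read (29 members tested), 14 with DESeq2 (17 tested) and 5 with a replicate block, against 9. Without the filter and with the block the calls lost were those of mt-Co2, mt-Nd4, mt-Nd5 and mt-Cytb, and the cause was not tested. Leaving out 1 library gave 8 to 12 depleted members, where 15 to 18 members were tested. The 12 came without IP replicate 3, with 18 tested, beside 8.73% of all genes in that fit. In the second fit, leaving out 1 library gave 1 to 4 members below the mRNA pool, with 1 without IP replicate 1 against 3. It gave 0 to 1 above the pool, with mt-Nd6 the 1 above without IP replicate 3. The share of all genes was not computed for the other fits with 1 library left out, so these counts are a description. The block does not rest on a known pairing: libraries of the same number had correlations of 0.130, 0.0399 and 0.025 in their deviations, and the labels do not tie the numbers to a lysate. The log2 ratio of the mRNA share was -5.41 over all reads against -4.76 over gene-assigned reads, because reads outside genes take more of an IP file. The difference in the log2 ratio of mt-Nd6 to mt-Cytb was 0.99 and ran from -0.39 to 2.73 with 1 library left out. Against the mRNA pool, uncalled values turned sign for mt-Atp6 and mt-Nd6 with limma voom (0.24 and -0.20). With 1 library left out they did so for mt-Atp6 (-1.26 to 0.16), mt-Nd2 (-0.60 to 0.28), mt-Nd5 (-0.32 to 0.19) and mt-Tm (-7.35 to 4.33). Against TMM, the median of all tested genes moved by 0.20 with upper quartile factors, 0.12 with total counts, -0.53 with library sizes from all reads and -0.15 with limma voom or the block, small beside the changes of the 9 depleted genes. Scaling without the 37 members moved it by -0.0011 and gave 9 depleted members. No median was computed for the tRNAs, since 3 of the 4 tested had no read in the IP, and no tRNA share without IP replicate 2, which held all tRNA reads of the IP. Depth limits the stretch from mt-Ts1 to mt-Nd4l and the tRNAs, where few IP reads were counted.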
